A study of Sus scrofa with 21 samples.

Results

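Genes of the cell cycle and of the mitotic machinery were examined in whole blood of SLAdd minipigs and Large White pigs. They were taken by name from the symbols printed for the array's probes. The rule took symbols that begin as those of the MCM helicase subunits, the CDC genes, the cyclin-dependent kinases (CDK) and their inhibitors (CDKN), the A, B, D and E cyclins, the BUB checkpoint proteins, the aurora and polo-like kinases, the kinesins (KIF) or the centromere proteins (CENP), together with TOP2A, MKI67, PCNA and PTTG1. RRM1, RRM2, TYMS and TK1 were also sought, but no probe carries these symbols in capitals. In all, 99 of the 47030 gene names of the array were members, and 186 probes measured them.

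The SLAdd pigs (DD) were inbred minipigs that are homozygous for one haplotype at the swine major histocompatibility locus, and the Large White pigs (LW) belonged to a commercial breed. All pigs were 60 days old and on the same standard diet. Total blood RNA of 10 DD pigs from 5 litters and 11 LW pigs from 6 litters was hybridized to one-colour Agilent arrays, a separate one for each animal, and each of the 3 chips held both breeds. Every value below is a log2 signal that the authors had background corrected and quantile normalized, and a log2 fold change (log2 FC) is the DD minus the LW value. A gene was called when its adjusted p was below 0.05 in limma, with breed and chip as fixed effects, the sow as a random block and Benjamini-Hochberg adjustment over all 34511 gene names that passed the filter on dim probes.

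A dividing cell first loads and fires the MCM helicase at replication origins, with PCNA as the sliding clamp of the DNA polymerases. CDK1 with the B cyclins then drives entry into mitosis, aurora and polo-like kinases and kinesins build the spindle, and the BUB proteins hold the anaphase promoting complex until every chromosome is attached. The complex is switched on by CDC20 and destroys securin (PTTG1) and the B cyclins. Most leukocytes in blood do not divide, so transcripts such as TOP2A, MKI67 and CCNB1 come from the few cells in cycle, while PCNA, the D cyclins and CDK6 are also made outside mitosis. Several names that the rule takes have other roles. CDC42 and its effectors act on the cytoskeleton, CDK19 is a subunit of Mediator, and many kinesins carry cargo.

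At least one probe of 61 members was well above background on all 21 arrays, 26 members reached this on some arrays, and 12 on no array. The filter on dim probes left 91 members to test. Those it removed were KIF5C, KIF6, KIF9, KIF17, KIF20A, KIF21A, PLK2 and CENPE, none of which was above background on any array. Among the classical mitotic genes, TOP2A, MKI67, CDK1, CCNB1, BUB1, AURKA, AURKB and CENPF were measured in every pig. CDC20, PLK1, CCNB2, KIF2C and KIF11 were near the limit. CDC20 was above background in 8 DD and 11 LW pigs, PLK1 in 5 and 10, CCNB2 in 3 and 8, KIF2C in 7 and 11, and KIF11 in 3 and 9.

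Of the 91 tested members, 18 were called (19.8%), where 21.2% of all features were. They divided into 6 higher in DD pigs (6.59%, beside 11.4% of all features) and 12 lower (13.2%, beside 9.8%). The sign of the difference leaned one way. It was negative for 72 members (79.1%), for 55.2% of all features and for 58.1% of the features with a known symbol, and the median log2 FC was -0.16 over the members and -0.05 over all features. In no member did the values of the breeds separate fully, as they did for 0.374% of all features. The plot of breed differences by role shows every tested member.

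**Figure D1:**
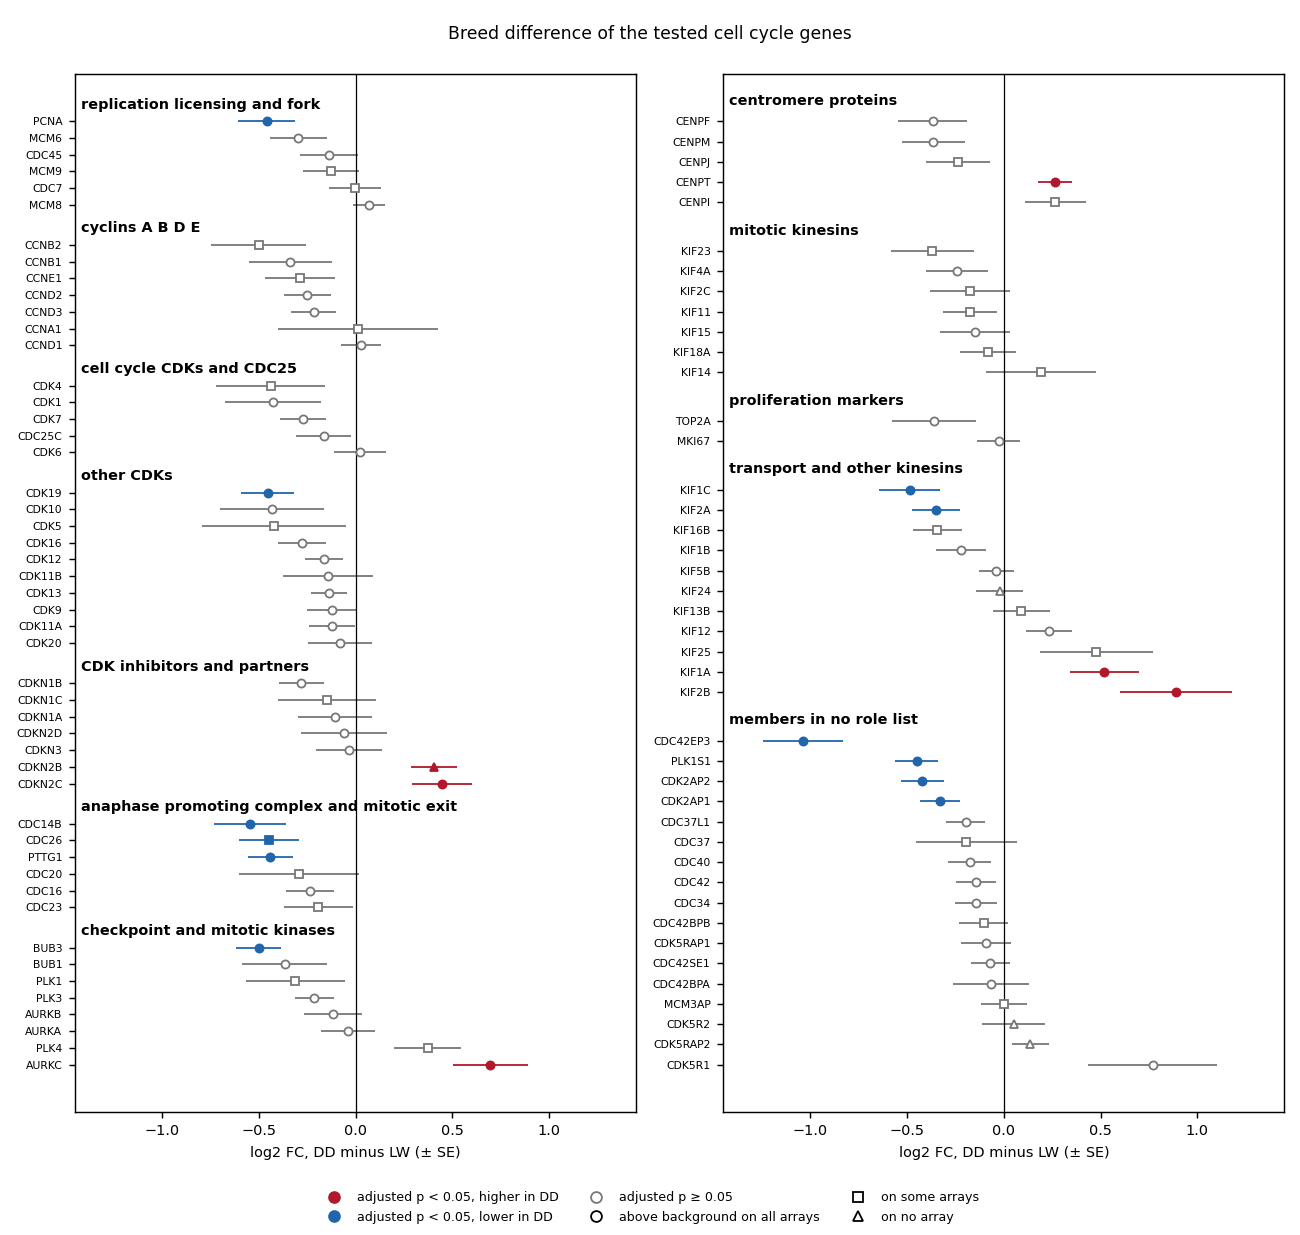
Breed difference of each of the 91 tested members, grouped by role. The x axis is the log2 FC (DD minus LW) with its standard error, filled symbols are called genes and the symbol's shape gives the arrays on which a probe was well above background. Most points lie left of 0, and the 6 filled points on the right are CENPT, CDKN2B, CDKN2C, KIF1A, AURKC and KIF2B.

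The number of calls moved with the pigs and chips in the fit, over the members and over all features alike. Leaving out 1 pig at a time gave between 6 and 22 called members, while the share of all features called ran from 10.9% (without DD_21) to 28.6% (without DD_06). It fell to 6 without DD_21, to 7 without LW_05 or LW_24, to 8 without LW_18, to 9 without DD_10, DD_23 or LW_14, to 10 without DD_19 or LW_12 and to 11 without DD_01, DD_08, LW_09 or LW_22. Called in all 21 of these fits were AURKC, BUB3, CDC42EP3, CDK2AP2, PLK1S1 and PTTG1. The call held in 5 of the 21 for CDC26 and KIF2A, 6 for CDKN2C, 7 for KIF1A and KIF2B, and 8 for CDC14B. It held in 9 for CENPT, 11 for CDK2AP1 and KIF1C, 12 for PCNA, 17 for CDK19 and 19 for CDKN2B. A technical bias of the third chip was noted by the authors. Without it, 0 members were called by limma, 11 had an unadjusted p below 0.05, and 1.52% of all features were called. Without chip 2, 7 members and 14.7% of all features were called. With the sow block left out it was 9 members and 14.6% of all features. Pigs of one sow were slightly less alike than others after breed and chip were removed (consensus correlation -0.109), which narrows the error of a breed difference in the fit with the block.

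The lean towards lower values was not seen on every chip. On chip 1 (3 DD and 4 LW pigs), 46 of the 91 members were lower in DD pigs (50.5%, beside 49.6% of all features) and their median difference was -0.0048. On chip 2 (4 and 4) 67 members were lower (73.6%, beside 52.1%), with a median of -0.14. On chip 3 (3 and 3) 65 were lower (71.4%, beside 56.2%), with a median of -0.37. The gap in brightness between the breeds grew in the order of these medians, while the share of lower members was highest on chip 2. The DD arrays were dimmer than the LW arrays by 0.07 on chip 1, 0.76 on chip 2 and 1.27 on chip 3 in brightness, taken as the upper quartile (log2) of the signal from the scanner. With that brightness as a covariate 0 members and 2.18% of all features were called by limma, 7 members had an unadjusted p below 0.05, and the median log2 FC of the members was -0.10. Breed and brightness cannot be told apart in full, since the breeds differ in both.

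**Figure D2:**
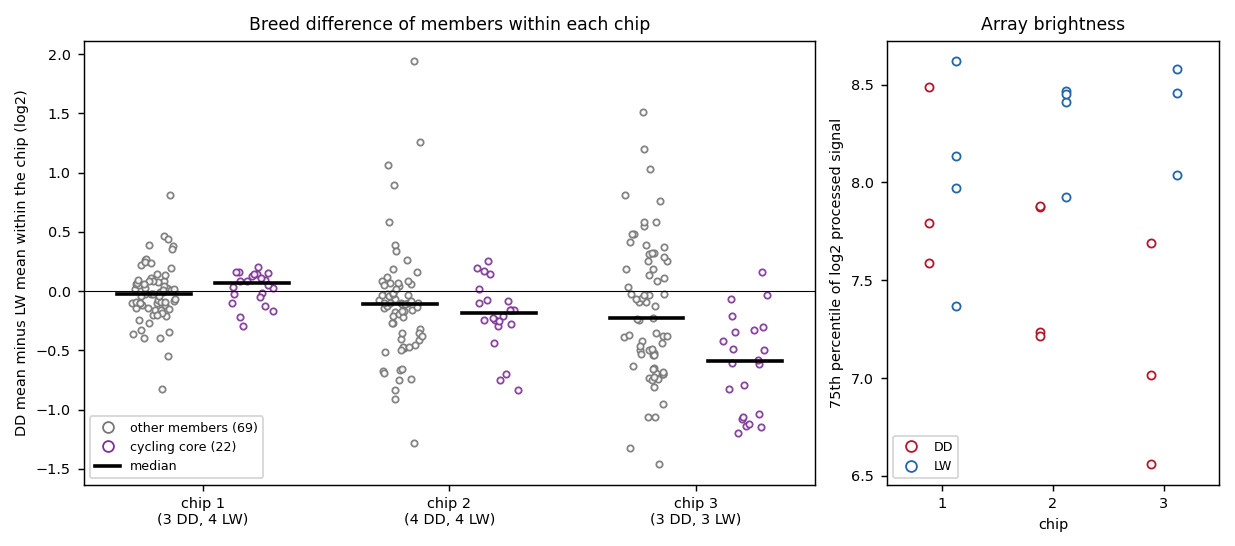
Left, the DD mean minus the LW mean of each tested member within each chip (log2), with the 22 genes of the cycling core in purple, the other 69 members in grey and black bars at the medians. Right, the brightness of each array (upper quartile of the scanner signal, log2) by chip and breed. Members centre on 0 on chip 1, where the breeds' arrays were about equally bright, and the cycling core lies lowest on chip 3, where the DD arrays were dimmest.

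At the replication fork, PCNA was lower in DD pigs. Its values were 6.22, 6.70 and 7.60 (lowest, median and highest) in DD pigs and 6.70, 7.45 and 7.77 in LW pigs. All but 1 of the DD pigs lay below the LW median and 5 lay below every LW pig. The log2 FC was -0.46 ± 0.15 (SE), a 1.38-fold difference, with an adjusted p of 0.0331 in limma. It was negative within each chip, at -0.33, -0.38 and -0.73 on chips 1, 2 and 3. The probe of this called gene is shown as printed on the array.
PCNA: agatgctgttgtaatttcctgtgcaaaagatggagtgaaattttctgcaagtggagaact

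None of the 5 other fork and licensing genes tested was called. MCM6, a subunit of the replicative helicase, ranged from 7.23 to 8.71 around a median of 7.86 in DD pigs and from 7.54 to 8.48 around 8.25 in LW pigs. The breeds overlapped widely, and the difference of -0.30 ± 0.15 had an adjusted p of 0.151. The list as a whole had a median log2 FC of -0.13, and 5 of its 6 genes were negative.

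No cyclin and none of the CDKs of the cell cycle proper was called with the mean over probes. CCNB1, the main mitotic cyclin, had values of 7.46, 8.31 and 9.24 in DD pigs and 7.74, 8.61 and 9.48 in LW pigs, for a difference of -0.34 ± 0.22 (adjusted p = 0.264). Its partner CDK1 had 6.78, 7.78 and 8.63 in DD pigs and 7.19, 8.25 and 9.65 in LW pigs, for -0.43 ± 0.25 (adjusted p = 0.219). Both genes overlapped almost throughout, with only 2 DD pigs for CCNB1 and 1 for CDK1 below the lowest LW pig. CCNB2 differed by -0.50 ± 0.25 (adjusted p = 0.144) and CCNE1, a cyclin of the start of S phase, by -0.29 ± 0.18 (adjusted p = 0.255), both on probes near background. CDK4 was likewise above background in only 6 DD and 10 LW pigs. The lymphoid D cyclins gave -0.25 ± 0.12 for CCND2 (adjusted p = 0.14) and -0.22 ± 0.12 for CCND3 (adjusted p = 0.184). With the brightest of its 3 probes in place of their mean, CCND3 was -0.37 and was called (adjusted p = 0.0275 in limma). Their kinase partners gave -0.44 ± 0.28 for CDK4 (adjusted p = 0.266) and 0.02 ± 0.14 for CDK6 (adjusted p = 0.916). For CCND2 all 10 DD pigs lay below the LW median of 12.00, between 11.12 and 11.99, but only 1 was below the lowest LW pig. The cyclins had a median log2 FC of -0.25 over 7 genes, and the cell cycle CDKs with CDC25C one of -0.27 over 5.

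Of the CDKs with other roles, CDK19, a kinase of the Mediator complex, was lower in DD pigs. It had 8.88, 9.38 and 10.11 in DD pigs and 9.25, 9.98 and 10.47 in LW pigs, and its log2 FC was -0.45 ± 0.14 (adjusted p = 0.0274 in limma). Only 2 DD pigs fell below the lowest LW pig. All 10 of these kinases were negative (55.2% of all features were), with a median of -0.15, and 9 were not called. CDK11A and CDK11B are near-identical copies, so that their probes may not tell them apart.

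Of 7 inhibitors of the CDKs and their partners, 2 were called higher in DD pigs, where 11.4% of all features were. The other 5 were negative and not called, and the median log2 FC over the 7 was -0.06. CDKN2C, an inhibitor of CDK4 and CDK6, was higher in DD pigs. Its values were 10.00, 10.55 and 11.51 in DD pigs and 9.63, 10.16 and 10.72 in LW pigs, with 9 of 10 DD pigs above the LW median. The log2 FC was 0.45 ± 0.15 (adjusted p = 0.0438 in limma), and it was positive within each chip (0.24, 0.39 and 0.76). Leaving out single pigs kept the call in 6 of 21 fits. CDKN2B, its relative, was also called higher (adjusted p = 0.0242 in limma) and is 1 of the 6 counted above, but its probe was not well above background on any of the 21 arrays, so its size is not given. A second probe that shares 53 of its 60 bases, listed without a gene symbol and likewise above background on no array, had a mean of 4.12 in DD pigs and 4.23 in LW pigs. CDKN1B, which restrains CDK2 in resting cells, had 9.18, 9.87 and 10.25 in DD pigs and 9.63, 10.06 and 10.30 in LW pigs, for -0.28 ± 0.12 (adjusted p = 0.0852). CDKN1A, the p53 target, gave -0.11 ± 0.19 (adjusted p = 0.715).

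The anaphase promoting complex and the proteins around it were the role with the lowest median, -0.37 over 6 genes, all of them negative and 3 of them called. Over all features 55.2% were negative and 9.8% were called lower. Within chip 1, however, CDC16, CDC20, CDC23 and CDC14B were positive (0.09, 0.03, 0.07 and 0.05). CDC23 was above background in only 1 DD and 1 LW pig. Securin, PTTG1, the inhibitor of separase that the complex destroys, had 10.01, 10.42 and 10.74 in DD pigs and 10.41, 10.94 and 11.08 in LW pigs. Every DD pig lay below the LW median and 5 lay below every LW pig. The log2 FC was -0.44 ± 0.12, a 1.36-fold difference, with an adjusted p of 0.0168 in limma, and within the chips it was -0.30, -0.43 and -0.61. PTTG1 has 2 probes. They gave -0.45 and -0.43 and were both called, and they overlap in the 13 bases GGTCTGTGGGTAT, so they read neighbouring stretches of one transcript. One of them is described as matching PTTG1 or its copy PTTG2.

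CDC26, a small subunit of the complex, was lower in DD pigs. It had 4.63, 5.36 and 6.33 in DD pigs and 5.15, 6.14 and 6.50 in LW pigs, and its log2 FC was -0.45 ± 0.15 (adjusted p = 0.0428 in limma). The probe was above background in only 6 DD pigs and in all LW pigs. The phosphatase CDC14B had 6.19, 7.23 and 7.79 in DD pigs and 6.85, 7.79 and 8.30 in LW pigs, for -0.55 ± 0.18 (adjusted p = 0.0407 in limma). All 10 DD pigs were below the LW median of CDC14B, yet on chip 1 alone the difference was 0.05. CDC20, the activator of the complex, differed by -0.29 ± 0.31 (adjusted p = 0.518).

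In the spindle checkpoint BUB3 was lower in DD pigs, with an adjusted p of 0.00856 in limma. It had 8.86, 9.20 and 9.64 in DD pigs and 9.30, 9.80 and 10.07 in LW pigs. All DD pigs lay below the LW median and 6 of 10 below every LW pig. The log2 FC was -0.50 ± 0.12, a 1.42-fold difference, with -0.12, -0.48 and -0.96 on chips 1, 2 and 3. Its 2 probes have one and the same sequence and are no separate support. Another probe, written Bub3 in the annotation and therefore not a member, gave -0.44 ± 0.11 (adjusted p = 0.015 in limma). BUB1, the kinase that BUB3 brings to the kinetochore, had 6.14, 6.90 and 7.56 in DD pigs and 6.06, 7.10 and 8.28 in LW pigs, for -0.37 ± 0.22 (adjusted p = 0.233).

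**Figure D3:**
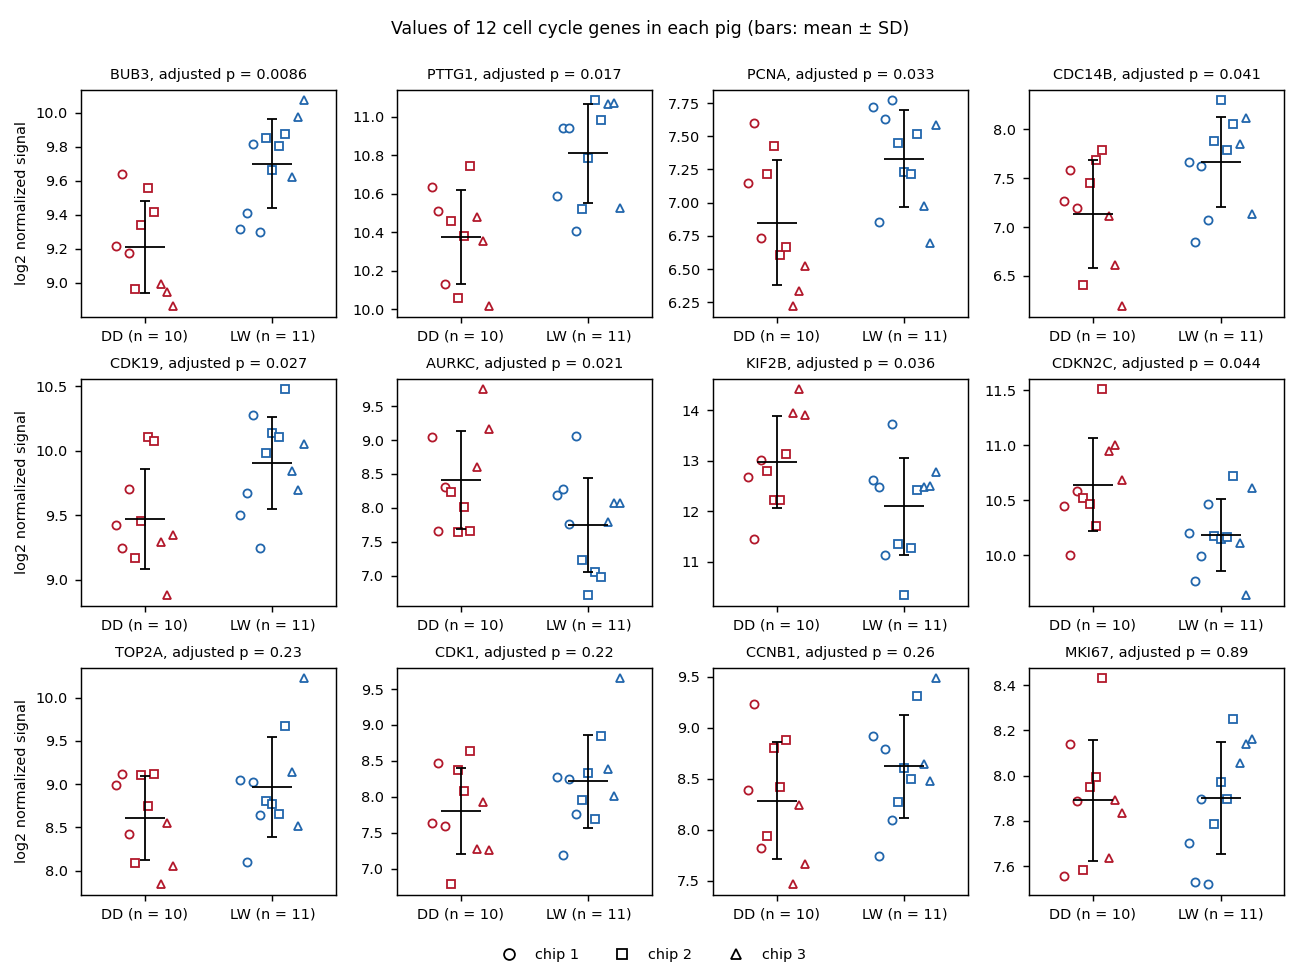
Log2 normalized signal of 12 members in each pig, DD in red (n = 10) and LW in blue (n = 11), with the chip as the symbol and bars at the mean and SD. BUB3, PTTG1, PCNA, CDC14B and CDK19 lie lower in DD pigs and AURKC, KIF2B and CDKN2C higher, with overlap in each, while TOP2A, CDK1, CCNB1 and MKI67 overlap almost throughout.

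Of the aurora kinases, the mitotic ones did not differ past the threshold. AURKA gave -0.04 ± 0.14 (adjusted p = 0.857) and AURKB -0.12 ± 0.15 (adjusted p = 0.597), and the 3 probes of AURKB ranged from -0.58 to 0.38. PLK1, the main polo-like kinase of mitosis, gave -0.31 ± 0.26 (adjusted p = 0.389). AURKC, an aurora kinase known mainly from germ cells, was called higher in DD pigs. Its probe had 7.64, 8.27 and 9.75 in DD pigs and 6.71, 7.79 and 9.05 in LW pigs, for a log2 FC of 0.70 ± 0.19 (adjusted p = 0.0206 in limma). The breeds did not differ on chip 1 (0.01) and were apart by 0.89 and 1.20 on chips 2 and 3.

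What the AURKC probe reads is uncertain from its letters. Labelled RNA in this assay is complementary to the transcript, so a probe has to carry the sense strand. Each probe was translated in the frames without a stop codon on both strands and searched for the glycine-rich, catalytic and activation loops of protein kinases. The probes of AURKA and CDK4 below hold the catalytic loop on the printed strand. Those of AURKC (glycine-rich loop) and PLK3 (activation loop, one of its 2 probes) hold theirs on the reverse complement only. Among the 60305 probes, the glycine-rich loop was found on the printed strand of 3 and on the reverse complement of 1, the activation loop on 4 and 3, and the catalytic loop on 2 and 1. Capitals mark the bases of the loop. Whether the AURKC and PLK3 probes bind transcripts of these genes was not tested.
AURKA: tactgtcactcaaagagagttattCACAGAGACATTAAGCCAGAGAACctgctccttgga
CDK4: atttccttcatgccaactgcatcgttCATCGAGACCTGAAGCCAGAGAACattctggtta
AURKC: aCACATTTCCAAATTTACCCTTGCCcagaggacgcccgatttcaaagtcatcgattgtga
PLK3: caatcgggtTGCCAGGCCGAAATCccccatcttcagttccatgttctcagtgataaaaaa

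The kind of accession behind each probe was also looked up. Of the 6, only CDKN2B had a probe tied to a pig RefSeq or Ensembl transcript, against 5 of the 12 called lower and 50 of all 99 members. The probes of the other 5 carry accessions of other kinds. Among the members called lower, so do those of CDC42EP3, CDC14B, KIF1C, CDK19, CDC26, PCNA and CDK2AP2. The count goes by the kind of accession only. Probes outside it may still hold pig sequence, which was not tested. CCND1, chosen here after its values were seen, shows how a probe can hold more than its name. It was near the top of the scale in every pig (16.21 to 17.26 in DD pigs and 16.40 to 17.37 in LW pigs, log2 FC 0.03 ± 0.10, adjusted p = 0.863). Of its 60 bases, the 27 in capitals are the reverse complement of a stretch in a probe named for SPIRE2, an actin nucleator. What the CCND1 probe binds was not tested, so its signal may not be the level of CCND1.
CCND1: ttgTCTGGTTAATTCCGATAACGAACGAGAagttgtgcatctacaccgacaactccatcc

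Centromere proteins were mixed. CENPT, which ties the kinetochore to centromeric DNA, was called higher in DD pigs. Its values were 6.68, 6.85 and 8.01 in DD pigs and 6.38, 6.79 and 7.81 in LW pigs, so the breeds overlapped over most of their range. The log2 FC was 0.27 ± 0.09 (adjusted p = 0.0365 in limma), neither of its 2 probes was called on its own, and one of them was above background on no array. CENPF, a protein of late G2 and mitosis, had 5.81, 6.44 and 7.02 in DD pigs and 6.09, 6.73 and 7.70 in LW pigs, for -0.37 ± 0.18 (adjusted p = 0.135). Of the 5 centromere genes tested, 3 were negative.

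None of the 7 tested kinesins listed as mitotic was called, a list that leaves out KIF2A and KIF2B. KIF11, the motor that pushes spindle poles apart, gave -0.18 ± 0.14 (adjusted p = 0.379), and KIF2C, which removes tubulin at kinetochores, -0.18 ± 0.21 (adjusted p = 0.56). The calls among kinesins fell on genes of transport and on relatives of KIF2C. KIF2B, one of these relatives, had 11.44, 12.91 and 14.41 in DD pigs and 10.33, 12.47 and 13.72 in LW pigs. The log2 FC of KIF2B was 0.89 ± 0.29 (adjusted p = 0.0357 in limma), but within chip 1 it was -0.10, and it was -0.06 with array brightness in the model. KIF1A, a motor of synaptic vesicle precursors in neurons, had 8.79, 9.52 and 9.98 in DD pigs and 8.05, 8.83 and 9.75 in LW pigs, for 0.52 ± 0.18 (adjusted p = 0.0415 in limma). Within the chips it was 0.81, 0.58 and 0.11. KIF2A, named after its value was seen, was lower in DD pigs (-0.35 ± 0.12, adjusted p = 0.0459 in limma).

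KIF1C, a motor for cargo in the secretory pathway, gave 2 opposite answers. The member probe had 5.94, 6.69 and 7.29 in DD pigs and 6.38, 7.09 and 8.04 in LW pigs, for -0.49 ± 0.16 (adjusted p = 0.0352 in limma). A probe written Kif1c was higher in DD pigs by 0.45 ± 0.14 (adjusted p = 0.027 in limma), and both were above background on all arrays.

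The proliferation markers TOP2A, the topoisomerase that untangles sister chromatids, and MKI67, the coat protein of mitotic chromosomes, were not called. TOP2A had 7.84, 8.65 and 9.12 in DD pigs and 8.10, 8.80 and 10.22 in LW pigs, for -0.36 ± 0.22 (adjusted p = 0.232). MKI67 had 7.56, 7.89 and 8.43 in DD pigs and 7.52, 7.90 and 8.25 in LW pigs, for -0.03 ± 0.11 (adjusted p = 0.887). Its 3 probes disagreed in sign, from -0.29 to 0.12. On chip 3 TOP2A was lower by 1.14 in DD pigs and on chip 1 higher by 0.14. The TOP2A probe is shown as the marker that followed the cycling genes closely from pig to pig.
TOP2A: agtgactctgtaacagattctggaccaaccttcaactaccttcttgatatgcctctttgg

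The lowest log2 FC of all members fell on one that the rule takes for its name alone. CDC42EP3, an effector of the GTPase CDC42 that shapes actin and septin filaments, had 6.67, 7.64 and 8.44 in DD pigs and 8.04, 8.61 and 9.71 in LW pigs. Each DD pig lay below the LW median and 7 lay below every LW pig. Its log2 FC of -1.04 ± 0.21 was a 2.05-fold difference (adjusted p = 0.00281 in limma), and it was -0.83, -0.91 and -1.46 within the chips. PLK1S1, now named KIZ, a centrosome protein that PLK1 phosphorylates, had 6.68, 7.48 and 7.75 in DD pigs and 7.33, 7.94 and 8.36 in LW pigs, for -0.45 ± 0.11 (adjusted p = 0.0126 in limma). CDK2AP2, a partner of chromatin complexes, had 13.24, 14.09 and 14.51 in DD pigs and 14.11, 14.56 and 14.94 in LW pigs, for -0.42 ± 0.11 (adjusted p = 0.017 in limma). With arrays scaled to their 75th percentile in place of quantile normalization, CDK2AP2 was -0.12 and was not called (adjusted p = 0.394). In both genes all DD pigs lay below the LW median. Its paralog CDK2AP1, named after its value was seen, gave -0.33 ± 0.10 (adjusted p = 0.0321 in limma). CDC42 itself was not called.

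Probes of one gene often disagreed. Of the 40 members with 2 or more kept probes, 15 had probes of both signs. CDK20 and MCM8, chosen after their values were seen, ranged from -0.83 to 0.67 and from -0.44 to 0.71, each with 1 called probe. By contrast, all 5 probes of CDK2AP1 were negative (3 called), and so were the 4 of PLK1S1 (3 called). The called probes are not all separate readings, since 2 of CDK2AP1 share 57 bases and 2 of PLK1S1 are identical. In 7 members 2 probes had identical sequences, among them BUB3, CDK2AP2 and PLK1S1.

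**Figure D4:**
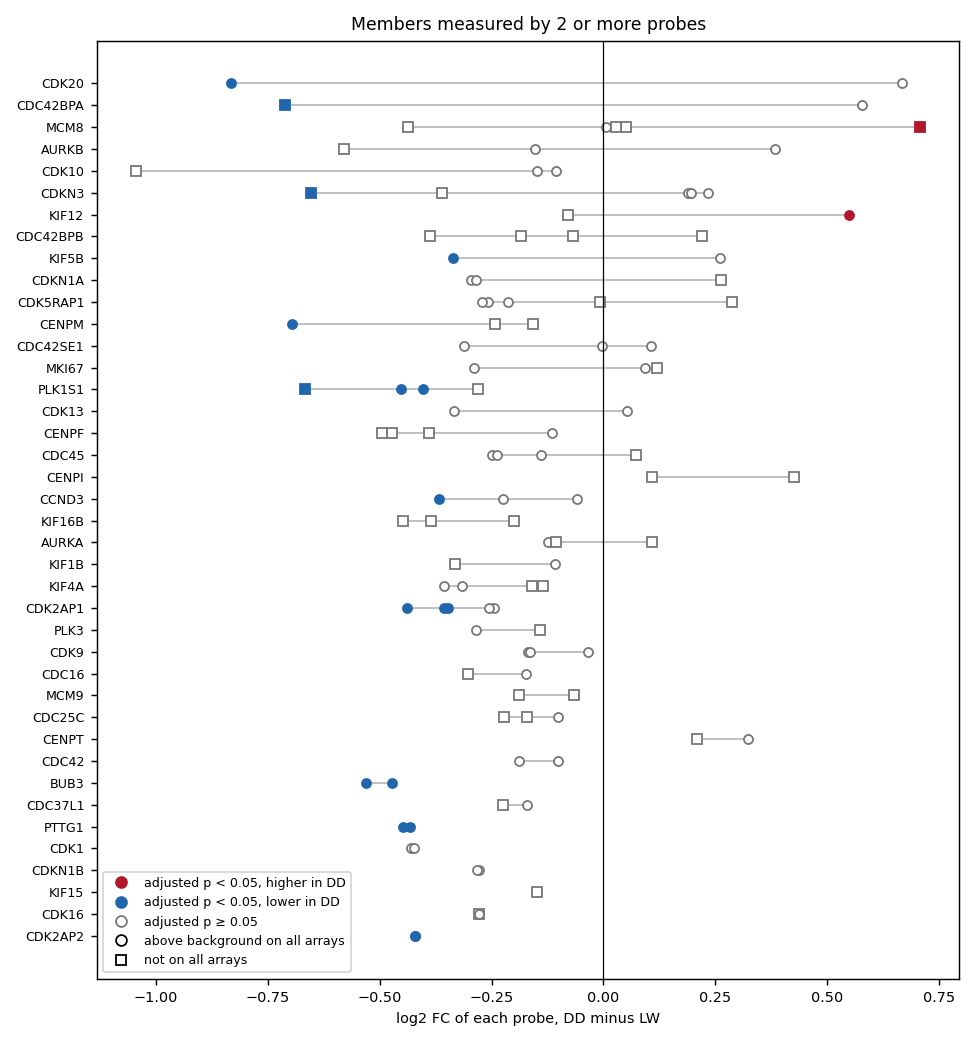
Log2 FC of each kept probe for the 40 members with 2 or more, ordered by the distance between the lowest and the highest. Filled symbols are called probes and squares are probes that were not above background on all arrays. CDK20 and CDC42BPA span 0 most widely, and the probes of CDK2AP2, CDK1, CDKN1B and PTTG1 nearly coincide.

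The annotation also holds 43 names that fit the rule except for their case, each with 1 probe. Of these, 38 were tested, 3 were called higher and 3 lower (21.2% of all features were called), and the median log2 FC was -0.12. The higher ones were cdc6, a licensing factor (0.64 ± 0.16, adjusted p = 0.0133), cdc42ep1 (0.90 ± 0.28, adjusted p = 0.0282) and Kif1c, and the lower ones were Bub3, cdk8 and cdc37, all by limma. Among 15 such names that repeat a tested member, 11 had the member's sign. The 11 are not all separate readings. The cdc20 probe has the same 60 bases as the CDC20 probe, and the cdk10 probe shares 44 bases with a probe of CDK10. Of the nucleotide supply genes, rrm2 gave 0.22 ± 0.19 (adjusted p = 0.411) and Rrm1 0.29 ± 0.21 (adjusted p = 0.328), the latter near background. These names were chosen after their values were seen.

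Of the other genes of the cell cycle outside the rule, 55 were tested and 40 were negative (55.2% of all features were), with a median of -0.19. Of these genes 8 were called lower and 1 higher, where 9.8% and 11.4% of all features were. Among those called lower were the clamp loader subunits RFC3 (-0.65 ± 0.15, adjusted p = 0.00732) and RFC4 (-0.50 ± 0.17, adjusted p = 0.0375), the primase subunit PRIM1, the nucleotide enzyme DUT, the anaphase promoting complex subunit ANAPC7 (-0.60 ± 0.11, adjusted p = 0.00155), RBL2 and MDM2. E2F1, the transcription factor that starts S phase genes, was higher in DD pigs (0.65 ± 0.19, adjusted p = 0.0234). These are limma values from the fit of the members.

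A cycling core of 22 tested genes that are known to peak in S phase or mitosis showed how far the pigs differed among themselves. All 22 were negative (55.2% of all features were), with a median log2 FC of -0.27. Only PTTG1 was called, where 9.8% of all features were called lower. The mean log2 value over the core ranged from 6.24 to 7.27 in DD pigs and from 6.48 to 7.56 in LW pigs, so the spread within each breed exceeded the 0.25 between the breed means (6.71 and 6.96). By chip, the median difference was 0.07 on chip 1, where 8 of the 22 were negative, -0.19 on chip 2 (17 negative) and -0.59 on chip 3 (21 negative). It moved to -0.16 without LW_24, which had the highest core of all pigs, and to -0.09 without chip 3.

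With breed and chip means removed, most core genes moved together from pig to pig. The median Pearson r over the 231 pairs was 0.50, beside 0.06 over the 4095 pairs of all tested members, given as a description over 21 arrays. CCNB1, TOP2A, KIF4A and BUB1 followed the mean of the other core genes at r = 0.93, 0.92, 0.91 and 0.90, and CDK1 at 0.89. MKI67 followed at 0.60. PTTG1, KIF11 and KIF18A did not follow (r = -0.14, -0.10 and -0.09), so the only core gene that was called is one that did not move with the rest. Among called members outside the core, r with the core mean ran from -0.42 (CENPT) to 0.75 (PCNA). CDC42EP3 had 0.67, BUB3 0.59, KIF1A -0.35 and AURKC -0.38. The pigs LW_24 and DD_06 had the highest core means after breed and chip were removed. Without both, the median r over pairs was 0.37. The core mean had an r of 0.22 with array brightness, 0.49 with the mean of the NK and cytotoxic markers (0.73 without both pigs), 0.43 with that of the T cell markers (0.07 without both) and between -0.32 and 0.26 with the other marker lists.

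**Figure D5:**
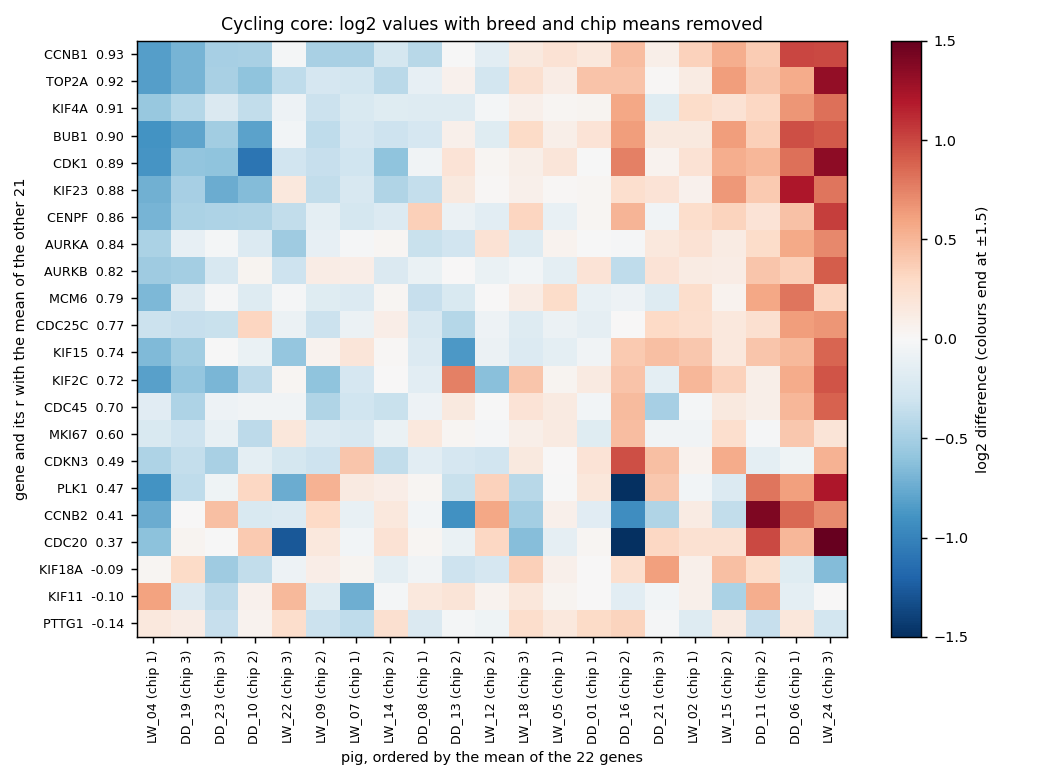
Log2 values of the 22 core genes (rows) in the 21 pigs (columns) with breed and chip means removed, the pigs ordered by their mean and the genes by their r with the mean of the other 21, given beside the name. The upper rows change colour together from LW_04 on the left to LW_24 on the right, and PTTG1, KIF11 and KIF18A at the bottom do not.

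Markers of blood cell types also differed between the breeds, and fewer cells of a type and less RNA per cell cannot be told apart in whole blood. Of 14 tested T cell markers 5 were called lower (BCL11B, CD247, CD3D, CD3G and CD8A), where 9.8% of all features were. All 14 were negative (55.2% of all features were), with a median log2 FC of -0.44. Their mean level was 7.84 to 9.14 in DD pigs and 8.12 to 9.26 in LW pigs. Of 13 erythroid markers 2 were called higher, EPB42 among them, and none lower (11.4% and 9.8% of all features were). Mean levels of the erythroid markers were 9.26 to 10.39 in DD pigs and 9.06 to 9.97 in LW pigs. Of 8 monocyte markers tested, CD36 was called higher and CD163 and CLEC7A lower. Of 9 granulocyte markers ARG1 was called higher, and of 8 platelet markers PPBP was called lower. The B cell, plasmablast, NK and immature haematopoietic lists had 0 called genes by limma. The part of these differences in the values of the cell cycle genes was not tested.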

How the data were processed

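Whole blood RNA of 21 pigs (10 DD and 11 LW) was measured, after the authors had removed outlier arrays. The authors deposited scanner files, with the intensity of each spot and flags for signal above background (Agilent Feature Extraction 10.7.3.1), and a log2 table, background corrected with normexp and quantile normalized over the arrays kept. The matrix was used for all values and the scanner files for flags, brightness and probe sequences.

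Breed came from the labels, and chip and litter from the study's sample table. Rows of one probe were averaged. The 25% of probes with the lowest mean were removed, and probes of one name averaged. Differences were fitted with limma 3.58.1 (statmod 1.5.0, R 4.3.3) over 34511 names. The number of arrays limits the precision. Alternatives were other background corrections, scalings, filters and models, and each chip and pig left out. Named genes were a panel of classical cell cycle genes, whatever their values, and the 10 highest and 10 lowest log2 FC among called members. Members and lists were chosen with earlier results of these data known. Genome coordinates were not used here. Symbols were matched to RefSeq (Sscrofa11.1), where 96 of 99 are listed.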

Additional observations from a re-analysis of the deposited data

Results flagged for a closer look

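CDC20 in pig DD_16 stood far from the other DD pigs. Its log2 value was 3.60 and the nearest DD pig had 5.45, a gap of 0.56 of the range of the 10 DD pigs. The probe was above background in 8 of 10 DD pigs, and in DD_16 it was not. This was 1 of 40 results examined in this way, and its cause was not tested. DD_16 was also the lowest DD pig for PLK1 (3.83) and CDK4 (3.98). It was the lowest too for CDK5 (3.53) and CDC37 (4.96), which were not among the 40. For CDK1 (8.63) and TOP2A (9.12) it was the highest DD pig.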

How the results depend on the processing

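Direction held better than significance over these alternatives, which share most of their arrays with the main fit. Of the 18 called members, 18 were called again with trend and robust eBayes and with adjustment over known symbols only, 17 with values re-computed from the scanner files and 16 with an offset of 50. The number called, 18 (6 higher and 12 lower), fell to 8 (2 and 6) with no filter on low probes, to 9 (2 and 7) without the sow block, to 3 (0 and 3) with no chip term, to 7 (1 and 6) without chip 2, and to 0 (0 and 0) without chip 3 or with array brightness as a covariate. The share of all features called fell too, from 21.2% to 9.76%, 14.6%, 5.57%, 14.7%, 1.52% and 2.18% in this order. With the brightest probe of each gene 22 members and 22.7% of all features were called. Without chip 1 it was 17 members, of which 3 were higher, and 22.6% of all features. Scaling to the 75th percentile moved the median of all features from -0.05 to 0.06. It gave 7 members called lower and 7 higher, beside 20.6% of all features called. Of these members, 13 were also called in the main fit. With 1 pig left out, the number called was 6 to 22, that higher 1 to 6 and that lower 5 to 16, the median of the members -0.21 to -0.14 and that of the core -0.35 to -0.16. BUB3, CDC42EP3 and PTTG1 were called with no chip term too. Both medians kept their sign under every alternative. Within chip 1 alone, the median difference was 0.07 over the core and -0.0048 over the members.

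Signs turned in 18 single-gene values under the other alternatives and in 12 with 1 pig left out, and KIF2B was the 1 called gene among them, with -0.064 under brightness. The others were uncalled. With brightness they were MKI67 (0.094), CCND2 (0.0080), KIF11 (0.035) and KIF2C (0.020). Without chip 3 they were MKI67 (0.12), AURKB (0.0035), KIF11 (0.0062) and KIF2C (0.20). AURKB gave 0.033 with an offset of 50, 0.38 with its brightest probe and 0.12 with probes above background on all arrays. Scaling to the 75th percentile gave 0.024 for MKI67 and 0.079 for AURKA. CDK6 (-0.19) and CDKN1A (0.085) turned without chip 1, and CDC20 (0.052) and AURKA (0.011) without chip 2. With 1 pig left out, MKI67 ranged from -0.082 to 0.023, CDK6 from -0.025 to 0.13 and AURKA from -0.12 to 0.053. The filter to probes above background on all arrays and the known symbols were added after seeing the data. The cause of these changes was not tested. No paired analysis was possible because the pigs of the breeds share no replicate numbers. Signals near background limit CDC20, PLK1, CCNB2 and CDC26.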

Other observations

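Genes outside the rule that followed the mean of the cycling core most closely across the 21 pigs, with breed and chip means removed, were other genes of division. CIT, the citron kinase of cytokinesis, had an r of 0.93, PBK, a mitotic kinase, 0.92, KIFC1, a kinesin that bundles spindle microtubules, 0.92, ESPL1, the separase that PTTG1 restrains, 0.91, and SPC24, a kinetochore protein, 0.91. They were chosen after their values were seen, as the highest of the features with a known symbol, and the values are given as a description.

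PLK3 overlaps another gene on the array. One of its probes shares 54 bases, as the reverse complement, with 2 probes named for TCTEX1D4. The PLK3 probe had a mean of 8.75 in DD pigs and 9.04 in LW pigs, and the TCTEX1D4 probes had 4.82 and 5.15 in DD pigs and 4.74 and 4.99 in LW pigs.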
